A study of Mus musculus with 3 samples.

Results

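The acid-base genes described here are the vacuolar proton pump, the bicarbonate transporters of the SLC4 family, the anion exchanger Slc26a4 and the carbonic anhydrases. They were chosen by gene symbol alone: names that begin with Atp6v0, Atp6v1 or Atp6ap, numbered members of the Slc4a and Car series, and Slc26a4, without pseudogenes. This gave 53 of the 33696 genes in the files, of which 26 belong to the proton pump, 16 to the carbonic anhydrases, 10 to SLC4 and 1 to SLC26. Kidney cells of male mice were measured by 3′ single-cell RNA sequencing in 3 libraries, 1 for each group. The groups were aged D+Q (20 months, given D+Q), aged (20 months, given vehicle) and young (3 to 4 months, labelled control). The labels do not spell out D+Q, which in this field usually stands for dasatinib and quercetin, and they give neither the strain nor the number of mice in a library. With 1 library per group, differences between groups have no replicate check, no test was made of them, and every interval below covers counting error only.

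Intercalated cells are the acid-base cells of the collecting duct. Type A cells secrete acid through a proton pump in the apical membrane and return bicarbonate to the blood through Slc4a1, the kidney form of band 3. Type B cells secrete bicarbonate through Slc26a4 (pendrin) and carry Slc4a9 on the opposite side of the cell. Carbonic anhydrases supply both with protons and bicarbonate from carbon dioxide. Most filtered bicarbonate is reclaimed earlier, in the proximal tubule, with the cotransporter Slc4a4 (NBCe1) as its exit to the blood.

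A cell was called intercalated-gated when it held counts of at least 2 of 11 marker genes (Foxi1, Clnk, Hepacam2, Aqp6, Insrr, Hmx2, Oxgr1, P2ry14, Kit, Dmrt2 and Stap1), none of which is an acid-base gene of the set. The gate took 343 of 20740 cells. They were 103 of 7390 aged D+Q cells (1.39%, exact 95% interval 1.14% to 1.69%), 79 of 5662 aged cells (1.40%, 1.11% to 1.74%) and 161 of 7688 young cells (2.09%, 1.79% to 2.44%). The gate reads detection: gated cells had a median of 3098 counts and other cells 2197. After thinning to 1000 counts per cell, the share was 0.501% (0.353% to 0.689%) in aged D+Q and 0.442% (0.286% to 0.651%) in aged. It was 0.637% (0.472% to 0.842%) in young, and the 3 intervals overlapped. Among proximal tubule-like cells, which should lack these markers, the gate took 3 of 5066 aged D+Q cells (0.0592%), 4 of 3837 aged cells (0.104%) and 3 of 4847 young cells (0.0619%).

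The gate was not pure. Of its 343 cells, 123 lay in an intercalated cell-like cluster (cluster 22) of 161 cells, drawn without the acid-base genes. A further 35 lay in cluster 8, which was led by collecting duct genes such as Aqp2 and had a median of 40.1% mitochondrial counts. Another 44 lay in the endothelial-like cluster 7, 80 in cluster 12, led by the leukocyte genes Dock2 and Ptprc, and 61 elsewhere. Endothelial markers summed to 1418, 1299 and 1417 CPM (a gene's counts scaled to a common library total) in gated aged D+Q, aged and young cells, against 544, 480 and 622 CPM in other cells. Several values without clusters 7 and 12, or in cluster 22, that differed from the main ones are gathered after the carbonic anhydrases. Others stand with their gene. Libraries shared 28 barcodes (aged D+Q with aged), 33 (aged D+Q with young) and 38 (aged with young). Deposited totals were 21058975, 13944270 and 24346733 counts in aged D+Q, aged and young.

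Start regions are shown for Atp6v1b1, called higher in gated cells and 1 of 2 acid-base genes with the motif searched, and for 3 genes with larger fold changes and without it. They run from 250 bases before to 50 after the start in RefSeq (build GRCm38.p6), 5′ to 3′ on the strand of the gene. Capitals mark the forkhead motif TGTTTAC, searched on both strands (GTAAACA on the other) because the gate marker Foxi1 is a forkhead factor.
Atp6v1b1 (chr6:83742767-83743066, plus strand): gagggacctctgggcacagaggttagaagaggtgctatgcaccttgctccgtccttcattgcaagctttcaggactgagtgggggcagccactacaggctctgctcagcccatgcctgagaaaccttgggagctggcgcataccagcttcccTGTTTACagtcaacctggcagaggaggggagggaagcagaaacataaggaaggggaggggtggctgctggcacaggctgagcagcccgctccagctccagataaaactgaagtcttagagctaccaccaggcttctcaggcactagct
Atp6v1g3 (chr1:138273488-138273787, plus strand): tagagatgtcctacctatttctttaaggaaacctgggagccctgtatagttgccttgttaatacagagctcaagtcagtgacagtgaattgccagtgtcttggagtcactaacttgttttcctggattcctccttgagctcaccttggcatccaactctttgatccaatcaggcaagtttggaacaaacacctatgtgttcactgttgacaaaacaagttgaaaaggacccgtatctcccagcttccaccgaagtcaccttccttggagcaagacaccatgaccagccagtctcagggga
Atp6v1c2 (chr12:17324681-17324980, minus strand): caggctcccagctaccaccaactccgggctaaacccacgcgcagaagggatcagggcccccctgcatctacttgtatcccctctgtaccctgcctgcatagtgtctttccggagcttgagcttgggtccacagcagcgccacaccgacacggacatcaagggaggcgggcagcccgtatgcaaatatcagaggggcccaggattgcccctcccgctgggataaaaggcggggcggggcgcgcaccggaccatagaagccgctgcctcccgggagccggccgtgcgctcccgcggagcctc
Slc26a4 (chr12:31559935-31560234, minus strand): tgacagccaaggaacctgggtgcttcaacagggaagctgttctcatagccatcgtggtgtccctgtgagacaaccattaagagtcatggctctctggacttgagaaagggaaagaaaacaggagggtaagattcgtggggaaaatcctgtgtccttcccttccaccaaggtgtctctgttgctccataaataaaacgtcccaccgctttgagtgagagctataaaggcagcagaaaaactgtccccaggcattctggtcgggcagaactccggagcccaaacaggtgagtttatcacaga
The motif occurs once in the Atp6v1b1 window, at position 153 from its 5′ end. It is in the windows of 2 of the 38 acid-base genes with an entry, Atp6v1b1 and Car5a, and of 1095 of all 27025 genes (4.05%). A match of these letters is a description, not a binding site.

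Between gated and other cells, 21 acid-base genes were higher and 5 lower, of 50 tested. The higher side held 13 proton pump genes, Slc26a4, Slc4a1, Slc4a5 and Slc4a9, and Car2, Car8, Car12 and Car15. The lower side held Slc4a4, Car4, Car14, Car5a and Atp6v1b2. The test was edgeR's quasi-likelihood test on counts summed per library and side of the gate, with the library as a block and Benjamini-Hochberg adjustment over all 17468 genes tested. Over all genes, 7.01% were called higher and 9.19% lower at an adjusted p under 0.05. The median log2 fold change was 0.33 for the 50 acid-base genes and -0.07 for all genes. The 3 libraries serve as the replicates of this contrast although each is another group. The fit draws on all genes for its dispersion, so a standard error (SE) can be smaller than that gene's own spread between libraries. Slc26a4, for example, had log2 ratios of gated over other cells of 6.55 in aged D+Q, 5.71 in aged and 5.56 in young. Its SE in the fit was 0.11. The size of a very small adjusted p depended on the fit: that of Atp6v1g3 was 2.9e-271 in the edgeR fit reported, 6.36e-25 with a minimum of 300 counts and 4.16e-08 with no replicate block. The remaining 3 genes (Car6, Atp6v1fnb and Atp6v1e2) had under 30 counts in all and 0 in gated cells. Scaling sets part of the balance: by totals alone, without TMM factors, the median of all genes moved to 0.22, with 2786 genes higher and 638 lower, and the acid-base genes split into 25 higher and 2 lower.

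**Figure D1:**
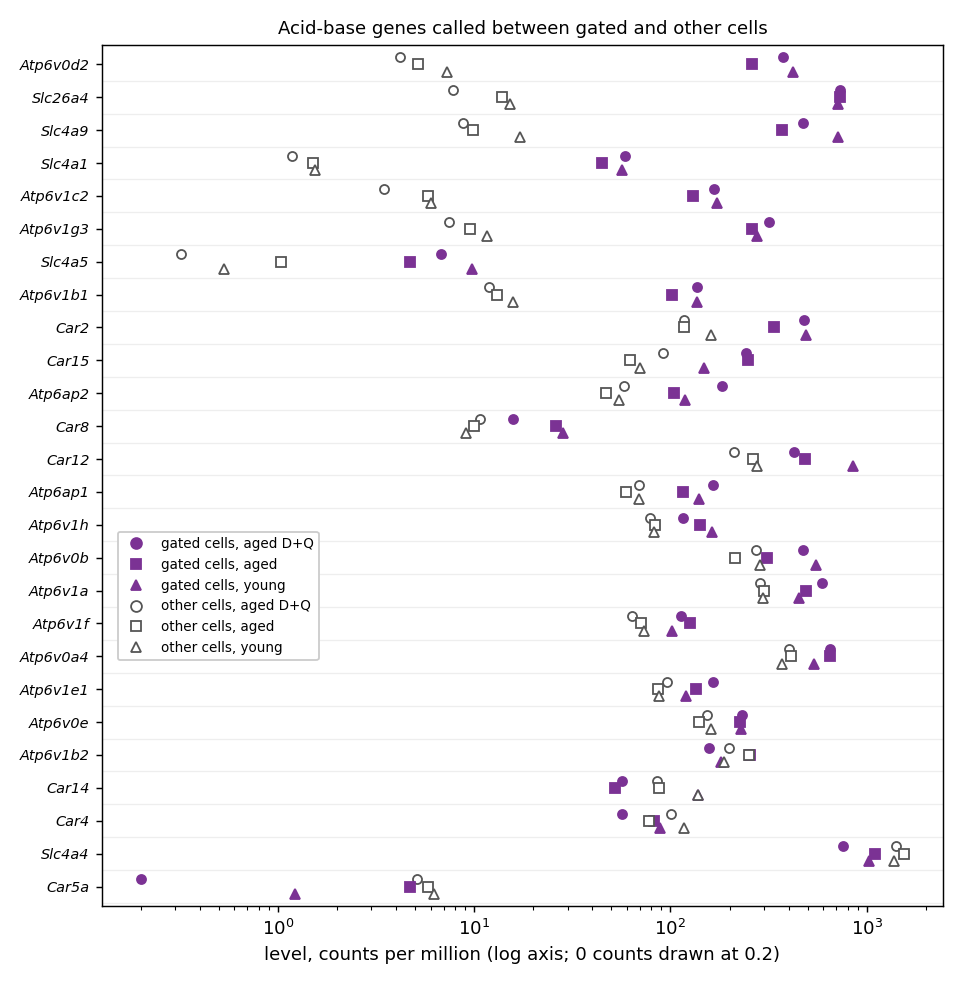
Level in CPM (log axis) of the 26 called acid-base genes, ordered by log2 fold change, in gated cells (filled) and other cells (open) of the aged D+Q, aged and young libraries. Atp6v0d2, with 260 to 420 CPM in gated and 4.18 to 7.29 CPM in other cells, lies at the top, and in Atp6v1b2, Car14 and Car4 the filled and open points overlap.

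The vacuolar proton pump joins a cytosolic V1 part, which splits ATP, to a membrane V0 part, which carries protons. Of its 24 tested genes, 13 were higher in gated cells, 1 was lower and 10 did not pass. Several subunits exist as a form found in most cells and a form found in kidney and few other tissues.

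Among V0 subunits, Atp6v0d2 is the restricted form of the d subunit. It had 374, 260 and 420 CPM in gated aged D+Q, aged and young cells, against 4.18, 5.17 and 7.29 CPM in other cells. All 3 gated values lay far above all 3 others. The log2 fold change was 5.71 ± 0.13 (SE), or 52.2-fold, with an adjusted p that edgeR gave as 0, below the smallest number held. Its widespread partner Atp6v0d1 had 63.4, 85.2 and 69.9 CPM in gated cells against 60.2, 60.0 and 58.3 CPM in other cells. These values did not overlap either, but after scaling the log2 fold change was 0.00 ± 0.15 (edgeR, adjusted p = 0.994).

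Among V1 subunits, Atp6v1b1 is the form of the ATP-binding B subunit whose loss causes distal renal tubular acidosis in humans. It had 136, 102 and 136 CPM in gated aged D+Q, aged and young cells, against 12.0, 13.0 and 15.7 CPM in other cells. The groups did not overlap, and the log2 fold change was 2.91 ± 0.17 (SE; edgeR, adjusted p = 4.79e-66). Atp6v1b2, the widespread B subunit, had 156, 253 and 182 CPM in gated cells against 199, 250 and 188 CPM in other cells. Here the groups overlapped, and only 2 of 3 libraries were lower in gated cells. The call as lower (log2 fold change -0.40, edgeR, adjusted p = 0.00241) was lost with scaling by totals, at -0.11.

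Atp6v1g3, the restricted G subunit of the stalk, had 319, 260 and 276 CPM in gated aged D+Q, aged and young cells, against 7.45, 9.54 and 11.6 CPM in other cells. Its log2 fold change was 4.60 ± 0.13 (edgeR, adjusted p = 2.9e-271). Atp6v1g1, the widespread form, had a log2 fold change of -0.21 ± 0.14 (adjusted p = 0.389), and Atp6v1g2, the form best known from neurons, one of 0.28 ± 0.47. Atp6v1c2, the restricted C subunit, had 168, 130 and 173 CPM in gated aged D+Q, aged and young cells, against 3.49, 5.80 and 6.04 CPM in other cells. Its log2 fold change was 4.67 ± 0.19 (adjusted p = 2.55e-132), beside -0.03 ± 0.16 for the widespread Atp6v1c1. In the d, G and C pairs, the restricted form was called higher and the widespread form was not called. The difference between the paired genes was not tested.

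Atp6v0a4, the kidney form of the a subunit in the proton path, stood apart from these. It had 652, 651 and 539 CPM in gated aged D+Q, aged and young cells, against 404, 413 and 370 CPM in other cells. The log2 fold change was 0.34 ± 0.09 (edgeR, adjusted p = 0.00315). Proximal tubule-like cells, 13750 of the 20740 cells, held 66.7% of all Atp6v0a4 counts. That share was not particular to it, with 68.7% for Atp6v1b2 and 59.8% for Atp6v0b. Cluster 22 had 983 CPM of Atp6v0a4 against 477 CPM in the next class, distal convoluted tubule-like. Atp6v0a1 and Atp6v0a2, other a subunits, were not called, with log2 fold changes of 0.13 and 0.16.

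The catalytic subunit Atp6v1a had 593, 488 and 451 CPM in gated aged D+Q, aged and young cells, against 287, 299 and 295 CPM in other cells (log2 fold change 0.50 ± 0.09; edgeR, adjusted p = 2.7e-06). The accessory proteins Atp6ap1 and Atp6ap2, which help assemble the pump, were higher by 0.79 and 1.03 on the log2 scale. Atp6ap2, also known as the prorenin receptor, had 183, 104 and 119 CPM in gated cells against 58.2, 47.1 and 54.5 CPM in other cells. Smaller changes passed the test in Atp6v0b (0.50), Atp6v1h (0.51), Atp6v1f (0.39), Atp6v1e1 (0.33) and Atp6v0e (0.30). The calls of Atp6v1f, Atp6v1e1 and Atp6v0e were lost in every fit that left out the aged D+Q or the aged library. Atp6v0c, the proton-carrying ring, had a log2 fold change of -0.06 ± 0.10 and was not called, while without clusters 7 and 12 it was 0.59.

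Of the 10 SLC4 genes, 3 were higher, 1 was lower and 6 did not pass, and Slc26a4 was higher. Slc26a4 exchanges chloride for bicarbonate at the apical side of type B cells. It had 732, 727 and 714 CPM in gated aged D+Q, aged and young cells, against 7.78, 13.8 and 15.2 CPM in other cells. The gated values were close to each other, the log2 fold change was 5.61 ± 0.11, and edgeR again gave the adjusted p as 0. Without clusters 7 and 12 the log2 fold change was 6.18, and in cluster 22 it was 7.22.

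Slc4a9 (AE4), on the basolateral side of type B cells, had 471, 369 and 715 CPM in gated aged D+Q, aged and young cells, against 8.79, 9.86 and 17.1 CPM in other cells. The groups did not overlap, the young library was highest on both sides of the gate, and the log2 fold change was 5.17 ± 0.11 (edgeR, adjusted p given as 0). Slc4a1, the exchanger of type A cells, had 58.9, 45.0 and 56.4 CPM in gated aged D+Q, aged and young cells, against 1.18, 1.51 and 1.55 CPM in other cells. Its log2 fold change was 4.95 ± 0.34 (edgeR, adjusted p = 1.96e-45). Slc4a1 is also the band 3 protein of red cells. Beside it, erythroid markers summed to 249, 374 and 325 CPM in gated cells against 298, 585 and 335 CPM in other cells, and their part in the Slc4a1 level was not tested.

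Slc4a4, the exit of bicarbonate from proximal tubule cells, was lower in gated cells. It had 754, 1105 and 1027 CPM in gated aged D+Q, aged and young cells, against 1403, 1553 and 1379 CPM in other cells. All 3 gated values lay below all 3 others, with a log2 fold change of -0.88 ± 0.10 (edgeR, adjusted p = 9.08e-18). Beside it, 12 proximal tubule markers summed to 14274, 14898 and 13770 CPM in gated cells, against 23695, 22626 and 21321 CPM in other cells. The part of free proximal tubule RNA in the gated level of Slc4a4 was not tested.

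Of the remaining SLC4 genes, Slc4a5, an electrogenic sodium bicarbonate cotransporter, rested on 13 gated counts. It had 6.79, 4.73 and 9.81 CPM in gated aged D+Q, aged and young cells, against 0.322, 1.03 and 0.531 CPM in other cells (log2 fold change 3.36 ± 0.77; edgeR, adjusted p = 0.000168). The anion exchanger Slc4a3 had 15.8, 14.2 and 14.7 CPM in gated cells against 6.33, 5.56 and 6.23 CPM in other cells, and missed the threshold (log2 fold change 1.01 ± 0.38; edgeR, adjusted p = 0.0529). It passed without clusters 7 and 12 (1.98, adjusted p = 0.00173) and with scaling by totals (1.29, adjusted p = 0.00762), and stood at 2.51 in cluster 22. Slc4a2, the anion exchanger of many epithelia, had a log2 fold change of 0.43 ± 0.21 (adjusted p = 0.179). Slc4a7, Slc4a8, Slc4a10 and Slc4a11 had adjusted p-values of 0.416 to 0.935 and at most 45 gated counts each.

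Of the 15 carbonic anhydrase genes tested, 4 were higher, 3 lower and 8 not called. Car2, the main cytosolic enzyme of kidney cells, had 478, 336 and 488 CPM in gated aged D+Q, aged and young cells, against 117, 118 and 161 CPM in other cells. The groups did not overlap, and the log2 fold change was 1.43 ± 0.10 (edgeR, adjusted p = 5.44e-47). Car12, a membrane enzyme with its active site outside the cell, had 426, 485 and 855 CPM in gated aged D+Q, aged and young cells, against 211, 263 and 276 CPM in other cells. Its log2 fold change was 0.93 ± 0.09 (adjusted p = 9.97e-21), and it was 2.38 in cluster 22.

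Car15, a membrane-anchored enzyme that mice have and humans lack, had 242, 249 and 148 CPM in gated aged D+Q, aged and young cells, against 91.9, 62.1 and 70.1 CPM in other cells. Its log2 fold change was 1.18 ± 0.11 (edgeR, adjusted p = 1.98e-23). Car15 reached 1187, 1169 and 1107 CPM in aged D+Q, aged and young cells of cluster 8, which gave 35 of the gated cells, against 307 CPM pooled in thick ascending limb-like cells, its highest named class. Car8, a relative without enzyme activity, was called higher (1.01 ± 0.29; adjusted p = 0.00575) on 41 gated counts. Car8 reached 65.2 CPM in endothelial-like cells, its highest class. Its sign turned to -0.74 without clusters 7 and 12 and to -0.73 in cluster 22.

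Car4, the membrane-anchored enzyme of the proximal brush border, had 56.6, 82.8 and 88.3 CPM in gated aged D+Q, aged and young cells, against 100, 77.7 and 117 CPM in other cells. The groups overlapped and 1 of 3 libraries was higher in gated cells, and the call as lower rested on a log2 fold change of -0.66 ± 0.14 (edgeR, adjusted p = 3.73e-05). Car14, another membrane enzyme of the proximal tubule, had 56.6, 52.1 and 139 CPM in gated aged D+Q, aged and young cells, against 85.9, 87.9 and 137 CPM in other cells. It was lower in gated cells of 2 of 3 libraries and not in young, with a log2 fold change of -0.57 ± 0.13 (edgeR, adjusted p = 0.000324). The call was lost without the aged library (-0.43, adjusted p = 0.0565), with no replicate block (adjusted p = 0.392) and with scaling by totals (adjusted p = 0.138), and the fold was -0.21 in cluster 22. The mitochondrial Car5a had 3 gated counts, with 0, 4.73 and 1.23 CPM in gated aged D+Q, aged and young cells, against 5.15, 5.80 and 6.23 CPM in other cells, and was called with adjusted p = 0.045. Car1 and Car13 had 0 counts in gated cells, which allows up to 1.79 CPM there, and their levels in other cells were also under that.

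Several folds were larger without clusters 7 and 12 or in cluster 22. Without clusters 7 and 12 the log2 fold change was 6.08 for Atp6v0d2, 5.27 for Atp6v1g3, 5.31 for Atp6v1c2 and 3.59 for Atp6v1b1, and in cluster 22 it was 6.85, 5.97, 6.04 and 4.20. Atp6v1a stood at 1.33 without clusters 7 and 12 and 1.00 in cluster 22, Atp6ap2 at 2.05 and 1.51 and Atp6v0a4 at 0.74 and 1.18. Slc4a9 stood at 5.78 and 6.71, Car2 at 2.12 and 2.51, Car15 at 2.06 and 1.58. Slc4a1 stood at 5.79 without clusters 7 and 12 and at 4.00 in cluster 22, below the 4.95 of all gated cells. Without clusters 7 and 12, Atp6v1d and Atp6v0c were also called higher (0.77 and 0.59, edgeR, adjusted p = 0.000831 and 0.000914). The calls of Atp6v1b2 and Car5a as lower were lost there (edgeR, adjusted p = 0.143 and 0.0838). In cluster 22, Car3 was called lower (-1.54, edgeR, adjusted p = 0.00111), beside -0.09 and no call in the main fit. Atp6v1d (1.03) and Slc4a3 (2.51) were called higher in cluster 22. Atp6v1f, Atp6v0e, Car8, Car14, Car5a and Atp6v1b2 lost their calls in it.

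The calls of 13 genes stayed past the threshold in all 13 alternatives: Atp6v0d2, Atp6v1g3, Atp6v1c2, Atp6v1b1, Atp6v1a, Atp6ap1, Atp6ap2, Slc26a4, Slc4a9, Slc4a4, Car2, Car12 and Car15. Slc4a1 kept its call in the 12 in which it was fitted and Slc4a5, with fewer counts, in the 9 in which it was. In cluster 22 against all other cells, 20 acid-base genes were higher and 3 lower (Slc4a4, Car4 and Car3), where 2.84% of all genes were higher and 5.59% lower. These counts describe the cluster and are not a test, since it was drawn from the same cells.

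Other genes of acid-base transport were read from 5 lists. Of 12 tested genes that assemble or regulate the pump, 1 was higher and 3 lower, with a median log2 fold change of -0.10. Dmxl1, a subunit of the RAVE-like assembly complex, had 849, 665 and 778 CPM in gated aged D+Q, aged and young cells, against 389, 449 and 368 CPM in other cells (0.65 ± 0.09; edgeR, adjusted p = 1.02e-10), and 1697, 1348 and 1459 CPM in cluster 22. Its relative Dmxl2 had a log2 fold change of -0.37 (edgeR, adjusted p = 0.0301) in gated cells. In cluster 22 the sign of Dmxl2 turned, and it was not called (0.18, edgeR, adjusted p = 0.768). Of 12 other proton and anion transporters, 4 were higher and 3 lower (median -0.02). Slc26a7, a basolateral anion transporter of type A cells, had 15.8, 11.8 and 27.0 CPM in gated cells against 0.536, 0.715 and 1.16 CPM in other cells (4.22 ± 0.52; adjusted p = 3.1e-14). Slc9a4, a sodium-proton exchanger, was higher by 2.83 (adjusted p = 0.00183) on 13 gated counts, of which 12 came from the young library and 0 from cluster 22.

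Of 9 genes of ammonia production and transport, 3 were higher and 4 lower (median -0.42). The ammonia channels Rhbg and Rhcg were higher by 3.60 ± 0.20 and 2.63 ± 0.15 (edgeR, adjusted p = 9.49e-68 and 1.32e-63). Rhbg had 177, 78.1 and 77.3 CPM in gated aged D+Q, aged and young cells, against 6.17, 8.35 and 7.10 CPM in other cells, and cluster 8 reached 299, 469 and 137 CPM. Of 11 chloride and potassium partners, 4 were higher and 4 lower (median 0.05), led by the channel genes Kcnj10 (1.72, and 0.40 in cluster 22) and Bsnd (1.71). Of 8 genes of pH sensing and its kinases, 3 were higher and 1 lower (median 0.44), led by Ager, with 8 gated counts of which 0 lay in cluster 22 (2.86 ± 0.93), and the kinase Stk39 (0.88 ± 0.13).

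Across the named cell classes, 24 of the 50 acid-base genes with at least 30 counts had their highest pooled level in the intercalated cell-like cluster. Proximal tubule-like and adipocyte-like cells were highest for 5 each. The ranking was not made for all genes, so these counts have no share beside them, and unnamed clusters did not enter it. Some leads were small. Atp6v0d1 had 70.6 CPM in cluster 22 against 68.9 CPM in thin limb-like cells, and Atp6v1c1 had 72.8 against 71.6 CPM. Both were highest in cluster 22 in 0 of the 3 libraries taken singly. Distal convoluted tubule-like cells, neighbours of the collecting duct, had the second highest level of Atp6v1b1, at 82.2, 68.4 and 89.9 CPM in aged D+Q, aged and young libraries, against 244, 272 and 363 CPM in cluster 22. Slc4a3 was highest in distal convoluted tubule-like cells, at 72.8, 36.5 and 52.5 CPM. Slc4a11, a transporter of the SLC4 fold best known from the cornea, was highest in thin limb-like cells, at 37.1 CPM pooled over the libraries, on 14 counts.

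Outside the epithelium, Car3, the carbonic anhydrase of muscle and fat, had 11008, 11922 and 9854 CPM in adipocyte-like cells of the aged D+Q, aged and young libraries. Those 99 cells held 69.0% of all its counts. Car5b, a mitochondrial enzyme, also peaked there, at 415, 333 and 246 CPM. Car8 had 83.4, 68.9 and 51.6 CPM in endothelial-like cells of the aged D+Q, aged and young libraries, where the next class, podocyte-like, had 17.8 CPM pooled. Slc4a4 had 993, 1308 and 1127 CPM in endothelial-like cells and 1660, 1780 and 1626 CPM in proximal tubule-like cells. Beside it, 12 proximal tubule markers summed to 17334, 17310 and 16534 CPM in endothelial-like cells of aged D+Q, aged and young. In proximal tubule-like cells they summed to 26488, 25130 and 24693 CPM. The part of free proximal tubule RNA in the endothelial-like level of Slc4a4 was not tested.

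**Figure D2:**
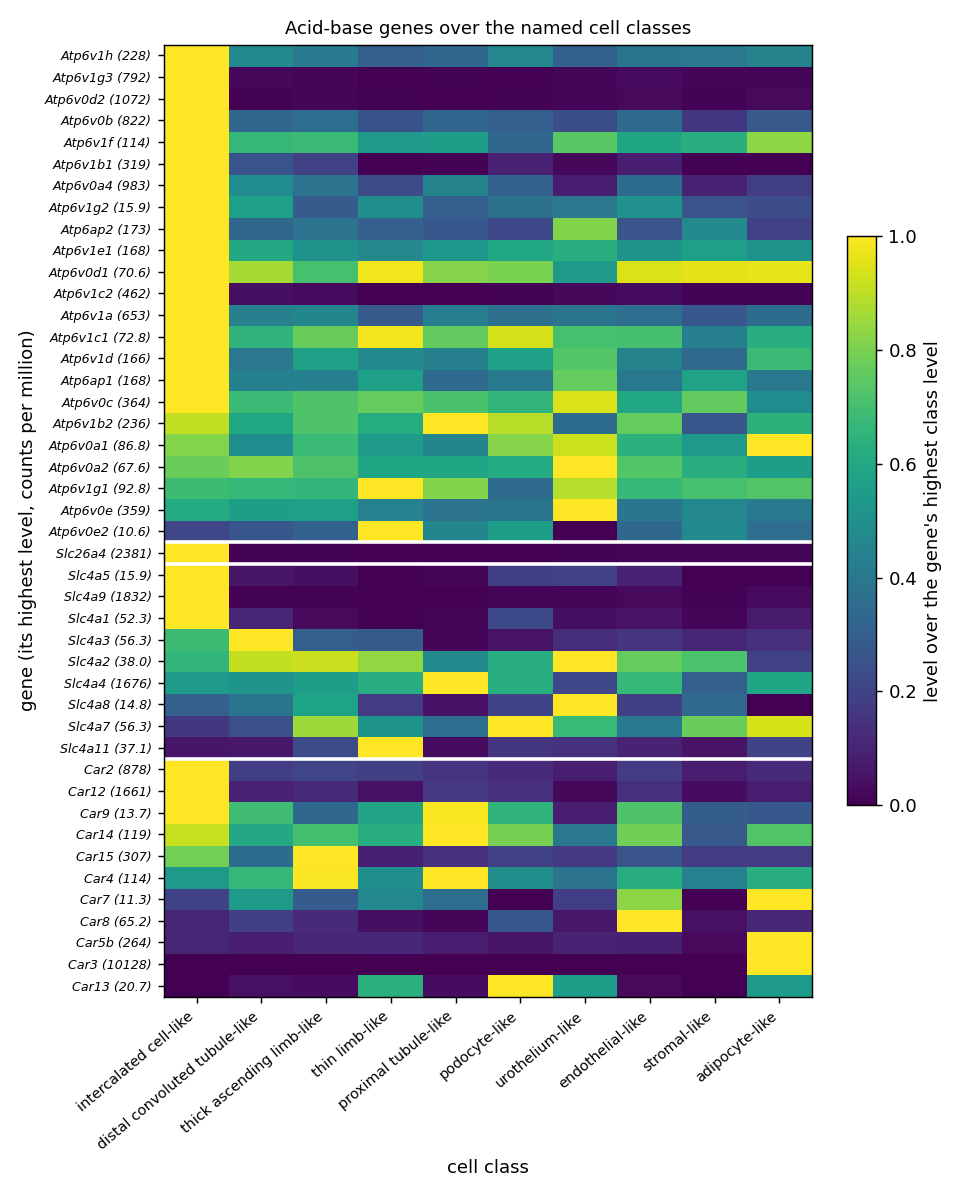
Level of 44 acid-base genes (those with at least 30 counts and at least 10 CPM in a class) in 10 named cell classes, each divided by the highest class level of that gene, which stands in brackets in CPM. White lines part the proton pump, Slc26a4, SLC4 and the carbonic anhydrases; Slc26a4 (2381 CPM) and Slc4a9 (1832 CPM) are bright in the intercalated cell-like column, Car3 (10128 CPM) in the adipocyte-like column, and widespread subunits such as Atp6v0d1 are bright across the row.

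In gated cells, Slc26a4 and Slc4a1 were rarely detected in the same cell. The number expected from their separate detection rates was not worked out. Of 343 gated cells, 144 had counts of Slc26a4 without Slc4a1, 45 had Slc4a1 without Slc26a4, 9 had both and 145 had neither. By library, Slc26a4 was found in 43 of 103 aged D+Q, 32 of 79 aged and 78 of 161 young gated cells. Slc4a1 was found in 12 aged D+Q, 11 aged and 31 young gated cells. Among proximal tubule-like cells, which should have neither, 0.982% had a count of Slc26a4 and 0.160% of Slc4a1, at a median of 2172 counts per cell.

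The counts of the exchangers were spread differently over clusters. Cluster 22 held 56.7% of the 1845 counts of Slc26a4 and 14% of the 164 counts of Slc4a1, and cluster 8 held 2.55% and 30.5%. Shares were closer in cluster 12 (15.1% of Slc26a4 and 12.2% of Slc4a1) and cluster 7 (9.27% and 6.71%). In cluster 8, 6 of 26 Slc4a1-positive cells also had Slc26a4. Cluster 22 had Slc26a4 in 112 of 161 cells and Slc4a1 in 16, with 1 cell positive for both. Of its Slc4a1-positive cells, 1 of 40 was in aged D+Q, 1 of 31 in aged and 14 of 90 in young. In both the gate and cluster 22, more cells had Slc26a4 than Slc4a1, and Slc4a1 was sparsely counted.

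**Figure D3:**
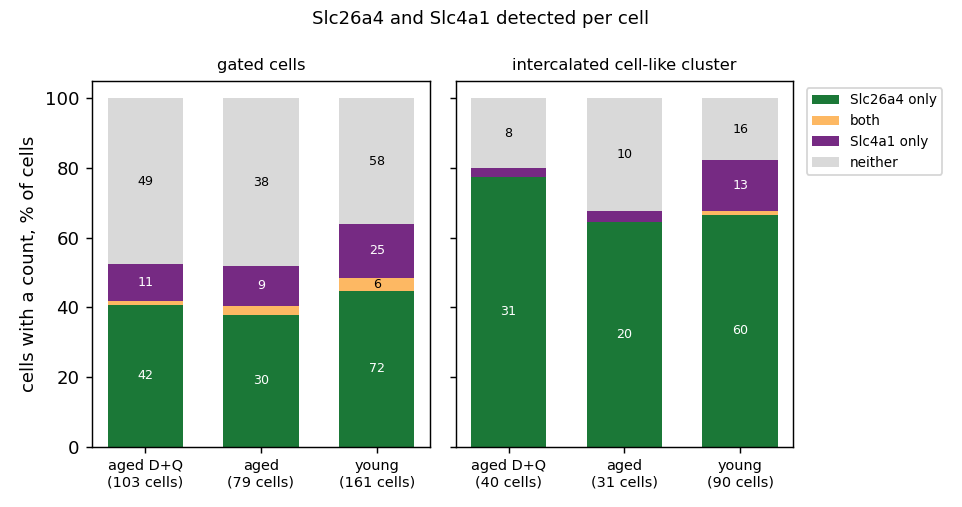
Share of cells (%) with counts of Slc26a4 only, both exchangers, Slc4a1 only or neither, in gated cells (left) and in the intercalated cell-like cluster (right) of the aged D+Q, aged and young libraries; numbers are cells. Slc26a4-only cells make up 42 of 103, 30 of 79 and 72 of 161 gated cells, and 13 of 90 young cluster cells but 1 of 40 and 1 of 31 in the other libraries had Slc4a1 only.

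Gated cells were also split by exchanger, pooled over the 3 libraries, so the cells are not replicates. Slc4a1-only cells were 11 aged D+Q, 9 aged and 25 young, and Slc26a4-only cells 42, 30 and 72. Pooled levels of some other acid-base genes differed between these cells. As a description, with cells chosen by what they express, Slc4a9 was at 1076 CPM (95% Poisson interval 1002 to 1153) in Slc26a4-only cells and 255 CPM (192 to 332) in Slc4a1-only cells. Car12 was at 965 CPM (896 to 1039) in Slc26a4-only and 497 CPM (407 to 601) in Slc4a1-only cells, and Atp6v1c2 at 250 CPM (215 to 289) and 116 CPM (75.1 to 171). Higher in Slc4a1-only cells were Atp6v1a, at 398 CPM (354 to 447) in Slc26a4-only and 882 CPM (761 to 1017) in Slc4a1-only cells, and Car15, at 215 CPM (183 to 251) and 409 CPM (328 to 503). Atp6v1g3 was alike, at 382 CPM (339 to 430) and 344 CPM (270 to 431). Median mitochondrial shares were 4.7% in Slc26a4-only and 8.7% in Slc4a1-only cells, and the part of cluster 8 in the split was not tested.

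The remaining comparisons set libraries against each other and rest on 1 library per group. Features with at least 30 counts and a mean of 5 CPM were counted as different from 1.5-fold on. The comparisons share libraries: aged enters 2 of them, as do young and aged D+Q. Each log2 ratio comes with an exact 95% interval that covers counting error and not the spread between mice. The aged library had the lowest median count per cell (2284 in aged D+Q, 1873 in aged and 2386 in young) and the lowest median mitochondrial share, both in all cells (6.01%, 4.45% and 6.03%) and in gated cells (6.63%, 3.37% and 5.81%). The part of these in the differences was not tested.

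Summed over all cells, 0 of 39 measured acid-base genes were at least 1.5-fold higher and 5 lower in aged than young, where 3.58% of all genes were higher and 3.39% lower. Between aged D+Q and aged, 0 were higher and 3 lower (1.48% and 1.78% of all genes). Between aged D+Q and young, 0 were higher and 7 lower (1.97% and 2.75%). Median log2 ratios of the 39 genes were -0.12, -0.08 and -0.12 in these comparisons, beside 0.04, -0.06 and -0.01 for all genes. In such sums, fewer cells of a type and less RNA per cell cannot be told apart.

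Car3 and Car14 were among the 5 genes lower in aged and the 7 lower in aged D+Q than in young. Car3 had 14.7, 34.4 and 147 CPM in aged D+Q, aged and young. Its log2 ratio was -2.09 (-2.24 to -1.95) for aged over young and -3.32 (-3.51 to -3.15) for aged D+Q over young. For aged D+Q over aged it was -1.23 (-1.45 to -1.01). Adipocyte-like cells numbered 6, 12 and 81 beside it. Car14 had 85.2, 86.7 and 137 CPM, with -0.69 (-0.78 to -0.60) for aged D+Q over young. Slc4a9 was also among those 5 and 7 genes. It was at 19.5 CPM in aged D+Q (95% interval 17.6 to 21.6), 21.5 in aged (19.1 to 24.2) and 43.6 in young cells (40.8 to 46.5). The log2 ratio was -1.02 (-1.22 to -0.82) for aged over young, -1.16 (-1.34 to -0.99) for aged D+Q over young and -0.14 (-0.37 to 0.08) for aged D+Q over aged. Slc26a4 ran in the same order but with aged nearer to young, at 24.5 CPM in aged D+Q, 37.0 in aged and 41.6 in young cells. Its log2 ratio was -0.76 (-0.93 to -0.60) for aged D+Q over young, -0.59 (-0.78 to -0.41) for aged D+Q over aged and -0.17 (-0.33 to -0.01) for aged over young. The intercalated cell-like cluster held 40 aged D+Q, 31 aged and 90 young cells beside these values.

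Within gated cells the exchangers had different patterns, a difference that was not tested. Slc26a4 had a log2 ratio of 0.03 (-0.18 to 0.23) for aged over young and 0.04 (-0.17 to 0.23) for aged D+Q over young. Slc4a9 had -0.95 (-1.22 to -0.70) for aged over young, -0.60 (-0.84 to -0.37) for aged D+Q over young and 0.35 (0.05 to 0.66) for aged D+Q over aged. In cluster 22, Slc26a4 stood at 2611, 2981 and 2094 CPM in aged D+Q, aged and young cells and Slc4a9 at 1554, 1372 and 2090 CPM. Young was thus the lowest of the 3 libraries for Slc26a4 and the highest for Slc4a9 in that cluster. Without clusters 7 and 12, gated Slc4a9 stood at 741, 818 and 1328 CPM and gated Slc26a4 at 1115, 1629 and 1411 CPM in aged D+Q, aged and young. The even level of Slc26a4 across gated cells thus depended on those clusters.

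Car12, like Slc4a9, was highest in young. Its level in gated cells was 426, 485 and 855 CPM in aged D+Q, aged and young, with a log2 ratio of -0.81 (-1.05 to -0.59) for aged over young and -1.0 (-1.25 to -0.77) for aged D+Q over young. In cluster 22 it stood at 1250, 1124 and 1997 CPM. In proximal tubule-like cells, where Car12 is also found, the ratios were -0.12 for aged over young and -0.27 for aged D+Q over young. Of 35 measured genes in gated cells, 2 were higher and 6 lower in aged than young (13.9% and 9.32% of all genes). Aged D+Q had 2 higher and 5 lower against aged (10.4% and 16.2%), and 2 higher and 8 lower against young (9.02% and 11.2%). These sums rest on 103, 79 and 161 cells, and connecting tubule and principal cell markers differed beside them, at 5617, 2144 and 2635 CPM in gated aged D+Q, aged and young cells. Highest in young were urothelium markers, at 31.7, 7.10 and 286 CPM, thin limb markers, at 40.8, 35.5 and 120 CPM, and adipocyte markers, at 22.6, 28.4 and 113 CPM. The part of these in the results was not tested.

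Pump genes of gated cells had no common direction between libraries. Atp6v1g3 had a log2 ratio of -0.08 (-0.43 to 0.25) for aged over young and 0.21 (-0.10 to 0.52) for aged D+Q over young. Atp6v1b1 had -0.41 (-0.96 to 0.10) and 0.00 (-0.48 to 0.46). Atp6v0d2 was at 374, 260 and 420 CPM in gated aged D+Q, aged and young cells, with a log2 ratio of -0.68 (-1.01 to -0.37) for aged over young. In cluster 22 it was at 1016, 1017 and 1111 CPM, so that the gap seen in gated cells was narrower there. Atp6v0b, a proton-carrying ring subunit, was lower in gated aged than young cells (-0.82, -1.12 to -0.54) and higher in aged D+Q than aged (0.61, 0.29 to 0.94). Atp6ap2 was higher in gated aged D+Q cells than in aged (0.81, 0.27 to 1.38) and young (0.63, 0.18 to 1.07). In proximal tubule-like cells, Atp6v0b had -0.44 (-0.53 to -0.36) for aged over young and 0.43 (0.35 to 0.52) for aged D+Q over aged. Atp6ap2 had 0.35 (0.15 to 0.55) there for aged D+Q over aged and 0.10 (-0.06 to 0.26) for aged D+Q over young. The directions of both genes against aged were thus not particular to gated cells.

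**Figure D4:**
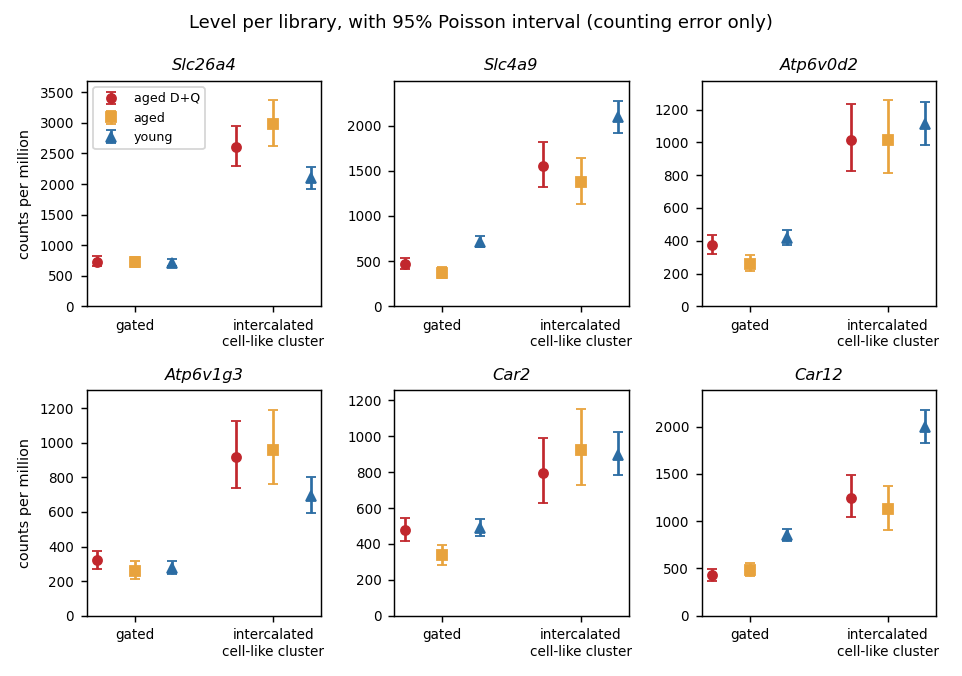
Level (CPM, axis from 0) of Slc26a4, Slc4a9, Atp6v0d2, Atp6v1g3, Car2 and Car12 in the aged D+Q, aged and young libraries, in gated cells (left in each panel) and in the intercalated cell-like cluster (right), with 95% Poisson intervals that cover counting error only. Slc4a9 (715 CPM gated) and Car12 (855 CPM gated) are highest in young on both sides, while Slc26a4 is level in gated cells at 714 to 732 CPM.

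In proximal tubule-like cells, 0 of 29 measured acid-base genes were at least 1.5-fold higher and 5 lower in aged than young, where 4.72% of all genes were higher and 3.94% lower. They were Car3, Car4, Car5b, Car9 and Car14. Between aged D+Q and aged, 0 were higher and 0 lower (2.01% and 2.13% of all genes), and between aged D+Q and young 0 were higher and 3 lower (2.81% and 3.03%), which were Car3, Car5b and Car14. All the genes named in these counts are carbonic anhydrases, but this rests on the cut-off. The pump gene Atp6v0c fell just short of 1.5-fold, with a log2 ratio of -0.57 (-0.66 to -0.49) for aged over young. The genes lower in aged than young numbered 6 with TMM (4.65% of all genes) and 6 with median-of-ratios scaling (4.56%). They numbered 7 as a mean over cells (4.1%) and 4 with a mitochondrial limit of 25% (4.28%). Medians of the 29 genes were -0.12, 0.00 and -0.10, beside 0.06, -0.05 and 0.02 for all genes.

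Car14 was the best counted of these. It had 97.9 CPM in aged D+Q (92.5 to 104), 93.0 in aged (86.3 to 100.1) and 157 in young proximal tubule-like cells (150 to 164). The log2 ratio was -0.75 (-0.88 to -0.63) for aged over young, -0.68 (-0.78 to -0.57) for aged D+Q over young and 0.07 (-0.06 to 0.21) for aged D+Q over aged. Both aged libraries lay below young and close to each other. Of 9 proximal tubule-like clusters, Car14 was lower in aged than young in 9 and lower in aged D+Q than young in 8. The exception was cluster 16, which had only 7 aged D+Q, 2 aged and 3 young counts in either comparison. Cluster 6 had 14 aged counts, at 140 CPM in aged and 148 CPM in young. Clusters of the same 3 libraries are not replicates of a group. Cluster 13 had 160, 158 and 244 CPM of Car14 in aged D+Q, aged and young, and cluster 4 had 83.5, 96.5 and 192 CPM. Without clusters 6, 2 and 3, which differed in size between libraries, the log2 ratio was -0.74 for aged over young.

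Car4 had 111 CPM in aged D+Q, 83.7 in aged and 136 in young proximal tubule-like cells. Its log2 ratio for aged over young was -0.70 (-0.83 to -0.57). The cytosolic Car2 had 119, 109 and 157 CPM in aged D+Q, aged and young, and lay below young in 8 of 9 clusters in aged and 9 of 9 in aged D+Q. Car3 had 4.82, 6.91 and 31.2 CPM in aged D+Q, aged and young proximal tubule-like cells. Beside it, 5 adipocyte markers summed to 19.6, 19.0 and 37.9 CPM in those cells, and adipocyte-like cells numbered 6, 12 and 81. The part of free adipocyte RNA in the Car3 difference was not tested.

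Slc4a4, the transporter paired with these enzymes in bicarbonate reclaim, differed little between libraries when summed over proximal tubule-like cells. It had 1660 CPM in aged D+Q (1637 to 1683), 1780 in aged (1751 to 1811) and 1626 in young proximal tubule-like cells (1604 to 1649). Some single clusters differed more, such as cluster 3, with 2594, 3231 and 2126 CPM in aged D+Q, aged and young. Cluster 16 had 846, 560 and 475 CPM. Between clusters Slc4a4 spanned more: cluster 14 had 3443, 3995 and 4042 CPM in aged D+Q, aged and young, and cluster 15 had 506, 583 and 523 CPM. Car12 was also high in cluster 14 and low in cluster 15, with 695, 765 and 709 CPM in cluster 14 and 20.7, 21.9 and 22.6 CPM in cluster 15. Car4 ran otherwise, with its highest level in cluster 3, at 252, 219 and 340 CPM, and 27.8, 26.9 and 53.5 CPM in cluster 14. Cluster 3 had a median of 38.8% mitochondrial counts.

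**Figure D5:**
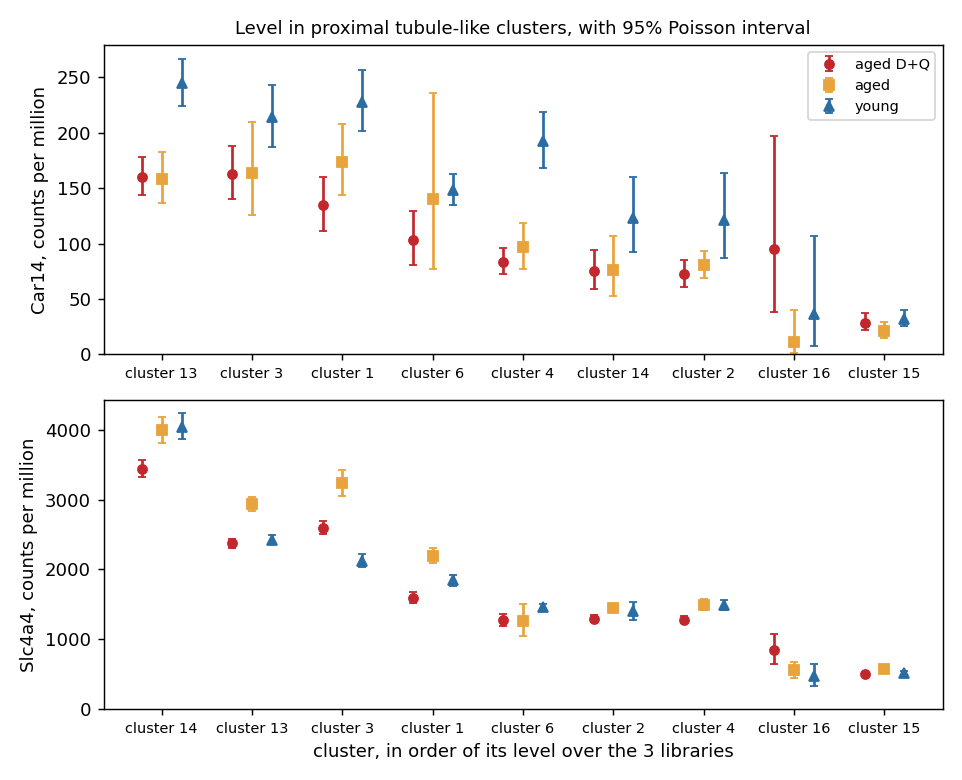
Level (CPM, axis from 0) of Car14 (top) and Slc4a4 (bottom) in the 9 proximal tubule-like clusters of the aged D+Q, aged and young libraries, ordered by their level over the 3 libraries, with 95% Poisson intervals that cover counting error only. Car14 lies below young in aged in 9 of 9 clusters and in aged D+Q in 8 of 9, with 2 aged and 3 young counts in cluster 16. Slc4a4 in cluster 14 (3443 to 4042 CPM) and cluster 15 (506 to 583 CPM) differs between clusters more than between libraries. In cluster 3 it runs from 2126 to 3231 CPM between libraries.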

How the data were processed

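Raw UMI counts per gene and barcode were deposited by the authors as 1 matrix for each of 3 libraries, without normalisation. Per the labels' protocols, kidneys were digested with collagenase II, red cells were lysed and 3′ libraries were made on the MobiCube platform. The submitters' processing notes name GRCm39 and mm10 without their roles. Aligner and barcode selection: not given in the sources used here. A limit of 50% mitochondrial counts removed 149 aged D+Q, 82 aged and 385 young barcodes, and 498, 283 and 542 with the highest doublet scores were removed next. Scrublet's own threshold marked 1, 0 and 2 barcodes, under the share at which it was taken to have worked. Its score quantile at 0.8% per 1000 barcodes was used instead. Cells were clustered without the acid-base genes (scanpy 1.11.5; 2000 variable genes, 30 components, 15 neighbours, Leiden resolution 1) into 27 clusters. A cluster was named from marker lists, by thresholds set after the data were seen, so a difference from the study's cell types may come from these rebuilt names.

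Counts were summed per library and side of the gate and tested with edgeR 4.0.16 (R 4.3.3) on genes with at least 30 counts, with TMM scaling and the gate's own markers left out. DESeq2 1.42.0 was an alternative. The library is the block because both sums come from the same cells' library. Every acid-base gene could be named. In addition, the 2 called genes of each list with the largest absolute log2 fold change were named, and, between libraries, genes with at least 30 CPM whose ratio interval excluded 1.5-fold. A few further genes beside these were named after their values were seen. Log2 ratios used a prior of 0.5 counts. The members and lists were chosen with earlier results of these data known. The edgeR step was tested on simulated data.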

Additional observations from a re-analysis of the deposited data

Results flagged for a closer look

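Car3 differed between libraries in its contrast of gated with other cells. The log2 ratio was -2.14 in aged D+Q (95% interval -8.03 to -0.23), -0.35 in aged (-1.43 to 0.44) and 0.44 in young (0.20 to 0.67), and the difference between libraries was not tested. Gated cells held 1 count of Car3 in aged D+Q, 11 in aged and 160 in young. Of the 160 young counts, 70 lay in 2 gated cells of the adipocyte-like cluster, and the highest single cell held 53. Adipocyte markers summed to 22.6, 28.4 and 113 CPM in gated aged D+Q, aged and young cells, and their part in the result was not tested.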

How the results depend on the processing

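Of 26 acid-base genes called between gated and other cells, 13 stayed past the threshold with the same sign in all 13 alternatives. Slc4a1 did so in the 12 and Slc4a5 in the 9 in which they were fitted. Only Car8 turned its sign (-0.73 in the intercalated cell-like cluster and -0.74 without clusters 7 and 12). The calls lower numbered 5 and became 3 with DESeq2, 2 with scaling by totals, 3 with a gate of 3 markers, 3 in the intercalated cell-like cluster (with Car3, not among the 5) and 3 without clusters 7 and 12. All genes called higher numbered 1225 and became 766, 2786, 559, 496 and 737 in that order. All genes called lower numbered 1605 and became 769 with DESeq2, 638 with scaling by totals, 1014 with a gate of 3 markers and 976 in the cluster. The cause was not tested.

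The fit with the library as a block pairs the gated and other sums of each library. With no replicate block, 16 acid-base genes were higher and 1 lower, with 766 and 737 of all genes. Leaving out each library in turn gave 16 to 18 higher and 3 to 5 lower acid-base genes, and 800 to 927 higher and 1012 to 1140 lower genes. In the intercalated cell-like cluster, leaving out each library gave 1 to 3 lower acid-base genes, with 233 to 414 higher and 365 to 722 lower genes. Fewer samples enter these fits. Without the aged D+Q library, the cluster had 354 higher and 600 lower genes, and without the young library 233 and 365.

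Shares of gated cells in aged D+Q, aged and young became 0.528%, 0.618% and 0.95% with 3 markers, 0.541%, 0.548% and 1.17% as the cluster, 0.501%, 0.442% and 0.637% after thinning, and 0.947%, 0.830% and 1.33% without clusters 7 and 12. The young share was the highest of the 3 in each. Its interval overlapped both others after thinning and without clusters 7 and 12, and that of aged with 3 markers.

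Counts of acid-base genes past 1.5-fold between libraries rested on the floor of 30 counts and 5 CPM. The share of all genes counted the same way stands in brackets. With no floor in all cells (52 acid-base genes), aged against young had 2 higher (13.8%), aged D+Q against aged had 1 higher (7.17%) and 6 lower (10.3%), and aged D+Q against young had 11 lower (11.4%). With no floor in proximal tubule-like cells (51 genes), the same comparisons had 3 higher (14.8%) and 12 lower (11.1%), 5 higher (8.24%) and 7 lower (13.8%), and 2 higher (10.4%) and 9 lower (12.3%). With no floor in gated cells (47 to 48 genes), 7 were higher in aged than young (23.2%), 6 higher (16%) and 10 lower (20.6%) in aged D+Q than aged, and 7 higher in aged D+Q than young (19.5%). As a mean over cells, aged D+Q against aged had 1 higher in all cells (2.12%). In gated cells that mean moved the aged over young log2 ratio of Slc4a9 to -0.67 and of Car3 to -1.93, and gave 1 higher in aged than young (17.9%) and 0 in aged D+Q than young (13.3%). Gated cells of aged against young had 1 higher with TMM (9.98%) and 1 with median-of-ratios scaling (11%). Aged D+Q against aged had 5 higher with median-of-ratios scaling (13%), and aged D+Q against young 0 with a mitochondrial limit of 25% (9.69%). Without clusters 6, 2 and 3, proximal tubule-like cells had 3 lower in aged than young (5.05%), and 1 higher (3.07%) and 5 lower (3.77%) in aged D+Q than young. Gated comparisons rest on few cells, few counts per gene and 1 library per group. Alternatives chosen after seeing the data were scaling by totals and those without named clusters or libraries of the cluster.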
